A study of Mus musculus with 6 samples.

Results

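Before ovulation, the cumulus cells around the oocyte spread apart in a gel of hyaluronan, and 6 genes encode the parts of that gel followed here. They are the hyaluronan synthase gene Has2, the cross-linker genes Tnfaip6 and Ptx3, the proteoglycan gene Vcan, the link protein gene Hapln1 and the hyaluronan receptor gene Cd44. The 6 were named as a list and found by symbol among the 49315 genes of the count files. All 6 matched, and all 6 were among the 18250 genes with enough counts to be tested.

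RNA was sequenced from granulosa cells freshly isolated from ovaries of C57BL/6J mice aged 8 to 9 weeks. The design compared 3 libraries labelled wild type (WT) with 3 labelled Jmjd3 knockout (KO), the deletion being described as specific to granulosa cells. Jmjd3, also named Kdm6b, encodes a demethylase that takes the repressive methyl mark off lysine 27 of histone H3. The sources used here name neither the driver of the deletion nor the exons removed, and give no cycle stage or hormone priming. They also do not say that replicates were separate animals, so p-values measure only a spread between libraries that may be technical.

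Hyaluronan is a long sugar chain that synthases in the cell membrane extrude directly into the space between cells. TSG-6, the product of Tnfaip6, moves heavy chains of inter-alpha-inhibitor from serum onto the chain, and pentraxin 3 binds several of these modified chains together. Versican and link protein 1 also bind hyaluronan, and CD44 holds it at the cell surface. In the mouse follicle the surge of luteinizing hormone, relayed by EGF-like factors and by signals from the oocyte, switches on Has2, Tnfaip6 and Ptx3.

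Depth was similar over the libraries. Counts per library summed to between 42379018 and 49901493, and 1 CPM, the count divided by the TMM-scaled library size, was worth 42.5 to 51.4 counts. For Kdm6b, WT replicates 1 to 3 gave 72.8, 66.3 and 66.2 CPM, and KO replicates 1 to 3 gave 64.7, 68.6 and 112 CPM. It was therefore not lower in the libraries labelled KO (log2 fold change 0.26 ± 0.22 SE, adjusted p = 0.755 in edgeR), although reads from exons left in place would still be counted. The genotype of each group rests on its label. Among 13 granulosa cell markers none was absent, with the follicle-stimulating hormone receptor gene Fshr at 113 to 146 CPM over the 6 libraries. The anti-Müllerian hormone receptor gene Amhr2 was the 1 called among them, lower in KO, with 240, 268 and 293 CPM over WT replicates 1 to 3 and 141, 127 and 130 CPM over KO replicates 1 to 3 (adjusted p = 0.0021, edgeR).

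None of the 6 matrix genes passed the test between the groups (0 of 6 at an adjusted p under 0.05 in edgeR, against 0.219% of all genes tested). At an unadjusted p under 0.05 there were 2 of 6, against 9.16% of all genes. Limma-voom called 0 of the 6 (0.466% of all genes), and DESeq2 called 0 of the 4 for which it gave an adjusted p (1.16% of all genes), which left out Has2 and Tnfaip6. All 6 fold changes were positive, with a median of 0.80 on the log2 scale against 0.0039 for all genes tested. Without KO replicate 3, 3 were positive and 3 negative, with a median of 0.020, and by limma-voom 5 were positive and 1 negative, with a median of 0.31. The genes fell into patterns by library. Has2, Tnfaip6, Ptx3 and Vcan stood highest in KO replicate 3, and Cd44 and Hapln1 stood highest in KO replicate 1. The first 4 overlapped between the groups, and the last 2 did not.

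**Figure D1:**
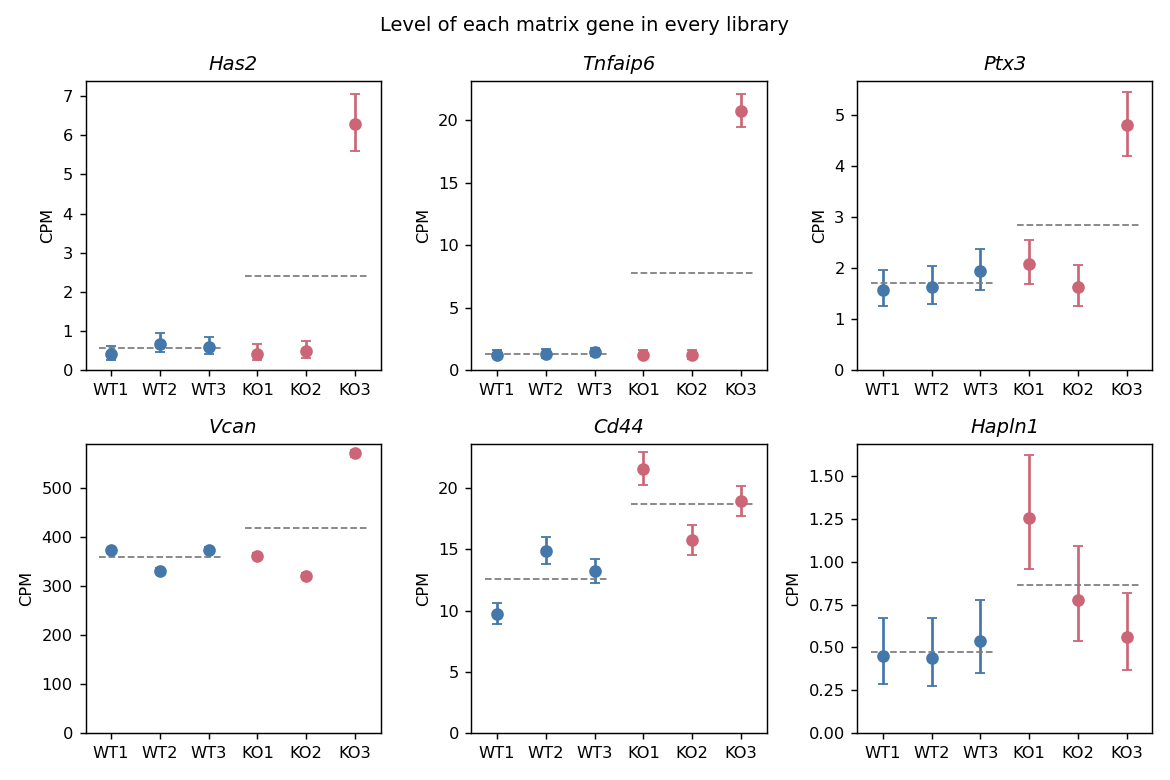
CPM of the 6 matrix genes (1 panel each, linear axes from 0) in every library, WT in blue and KO in red; bars are exact 95% Poisson intervals of the counts, and dashed lines are group means. Has2, Tnfaip6, Ptx3 and Vcan are highest in KO replicate 3, where Tnfaip6 reaches 20.7 CPM, while Hapln1 is highest in KO replicate 1 at 1.26 CPM.

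Has2 (chromosome 15, 56665627 to 56694539, minus strand, GRCm38) encodes the synthase on which cumulus expansion is known to depend. Its level was 0.41, 0.67 and 0.59 CPM over WT replicates 1 to 3, and 0.43, 0.49 and 6.29 CPM over KO replicates 1 to 3. These levels rest on 20 to 32 counts in 5 libraries and on 303 counts in KO replicate 3. The exact 95% counting interval in KO replicate 3 ran from 5.604 to 7.04 CPM, and the highest upper bound among the other 5 was 0.95 CPM. KO replicates 1 and 2 fell inside the WT range, and KO replicate 3 was 9.37 times the next library. Counting intervals here cover counting error only.

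Over the groups, Has2 had a mean of 0.56 ± 0.14 CPM in WT and 2.40 ± 3.37 CPM in KO (SD, n = 3 each). The log2 fold change was 2.12 ± 1.28 SE, with a 95% interval of -1.23 to 5.46 (adjusted p = 0.674, edgeR). Without KO replicate 3 it was -0.28 ± 0.35 SE (adjusted p = 0.78), so the sign of the group difference rested on that library. With the library weights of limma-voom the value was 0.26 (adjusted p = 0.906). The antisense gene Has2os overlaps 182 exon bases of Has2 and held at most 10 counts in any library, with 9 in KO replicate 3. Whether the counting used strand is not stated in these sources.

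Has2 was not the most abundant synthase gene in most libraries. Per length, in TPM, which divides counts by exon length and scales each library to the same sum, Has3 stood at 1.06 to 1.57 TPM in the 3 WT libraries and KO replicates 1 and 2, where Has2 stood at 0.27 to 0.44 TPM. In KO replicate 3 the order was the opposite, with Has2 at 4.19 TPM and Has3 at 1.75 TPM. The share of Has2 in the summed synthase TPM was 56.7% there and 16.2% to 28.0% in the other 5 libraries. Has1, the synthase with the fewest counts, was too low to be tested. It had 2, 0 and 3 counts in WT and 5, 7 and 52 counts in KO replicates 1 to 3, so its KO libraries all lay above its WT libraries. Summed over the 3 synthases, KO replicate 3 stood at 7.40 TPM and the other libraries at 1.46 to 2.06 TPM.

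**Figure D2:**
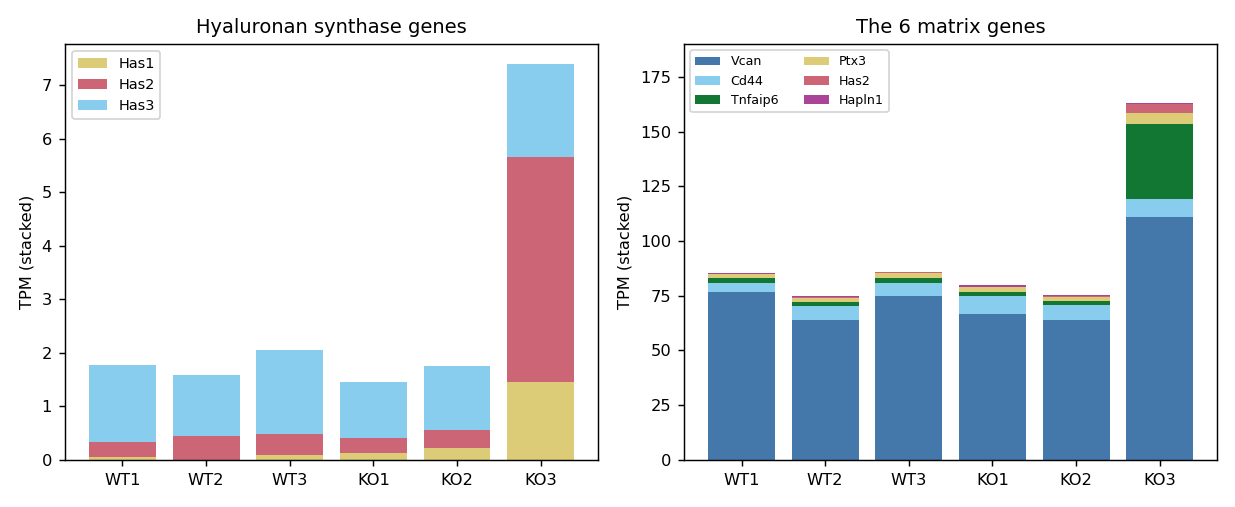
Stacked bars of TPM in each library for the hyaluronan synthase genes Has1, Has2 and Has3 (left) and for the 6 matrix genes (right). Has2 takes 56.7% of the synthase TPM in KO replicate 3 and at most 28.0% in the other libraries, and the 6 genes sum to 163 TPM there against 74.7 to 86.0 TPM elsewhere.

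Tnfaip6 (chromosome 2, 52038009 to 52056686, plus strand) encodes TSG-6, the enzyme-like protein that loads heavy chains onto hyaluronan. Its levels were close together outside KO replicate 3, with 1.25, 1.30 and 1.43 CPM over WT replicates 1 to 3, and 1.24 and 1.22 CPM over KO replicates 1 and 2. KO replicate 3 stood at 20.7 CPM, from 998 counts against 52 to 72 in the other libraries. That library was 14.5 times the next one, the widest gap of the 6 genes. The log2 fold change over the groups was 2.55 ± 1.41 SE (95% interval -1.23 to 6.33, adjusted p = 0.652 in edgeR). Leaving out KO replicate 3, it was -0.11 ± 0.23 SE (adjusted p = 0.887), and by limma-voom it was 0.36 (adjusted p = 0.891).

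Ptx3 (chromosome 3, 66219910 to 66225805, plus strand) encodes pentraxin 3, which is required for a stable matrix in the mouse. WT replicates 1 to 3 held 1.58, 1.64 and 1.94 CPM, and KO replicates 1 to 3 held 2.09, 1.62 and 4.80 CPM. KO replicate 1 lay just above the WT libraries and KO replicate 2 within them. KO replicate 3 was 2.295 times the next library, a smaller gap than those of Has2 and Tnfaip6. The log2 fold change was 0.73 ± 0.40 SE (95% interval -0.20 to 1.65, adjusted p = 0.625, edgeR), and 0.11 ± 0.22 SE without KO replicate 3 (adjusted p = 0.866). By limma-voom it was 0.18 (adjusted p = 0.813).

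Vcan (chromosome 13, 89655312 to 89742509, minus strand) encodes versican, a large proteoglycan that binds hyaluronan and carries chondroitin sulphate chains. Per length it was the most abundant of the 6 in every library. WT replicates 1 to 3 held 372, 331 and 374 CPM, and KO replicates 1 to 3 held 361, 320 and 570 CPM. KO replicate 3 was 1.52 times the next library, and KO replicate 2 lay just below the WT range. The log2 fold change was 0.22 ± 0.21 SE (95% interval -0.29 to 0.73, adjusted p = 0.785 in edgeR). Leaving out KO replicate 3, it was -0.08 ± 0.09 SE (adjusted p = 0.77), and by limma-voom it was -0.05 (adjusted p = 0.92). Versican is made in several spliced forms, which gene counts do not separate.

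KO replicate 3 thus held the highest level of 4 of the 6 genes, as it did for 21.8% of all genes tested. KO replicate 1 held the highest level of the other 2, as it did for 22.2%. In 3 of the 6, Has2, Tnfaip6 and Ptx3, KO replicate 3 was at least 2 times the next library, as in 0.91% of all genes. With Vcan, 4 of the 6 were at least 1.5 times the next library there, as in 2.09% of all genes. No other library held a member at 2 times the next one. The members were listed with earlier results of these libraries in view, so these counts describe the list and are no test of it.

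**Figure D3:**
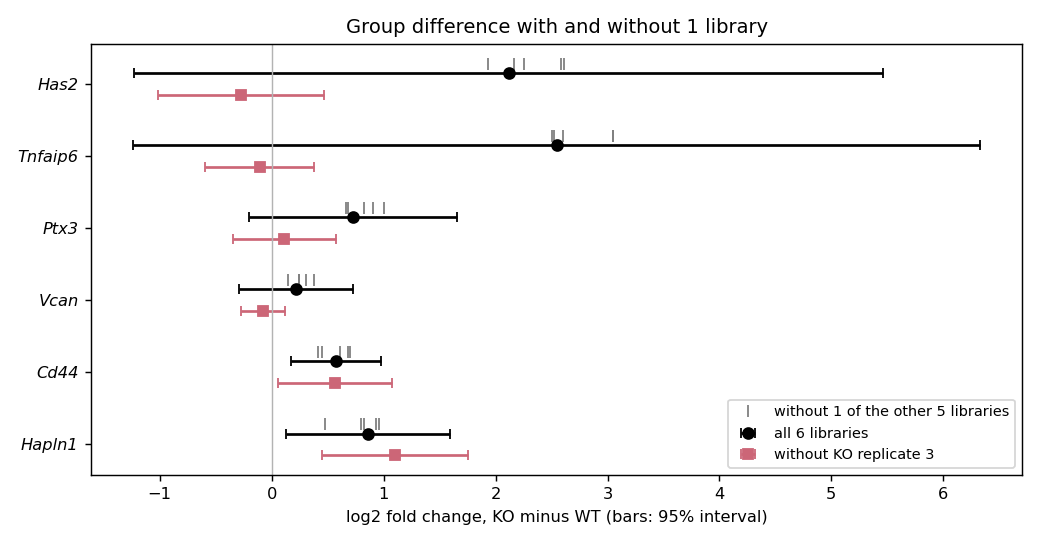
Log2 fold change (KO minus WT) of the 6 genes from edgeR with its 95% interval, for all 6 libraries (black) and without KO replicate 3 (red); grey ticks are the fits without 1 of the other 5 libraries. Has2 moves from 2.12 to -0.28 and Tnfaip6 from 2.55 to -0.11 without KO replicate 3, while Cd44 stays near 0.57.

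Of 14 tested genes of the ovulatory signal upstream of the matrix, 8 were highest in KO replicate 3 and none passed the test, with a median log2 fold change of 0.24. The EGF-like ligand gene Areg reached 241 CPM there, against at most 0.98 CPM elsewhere (log2 fold change 7.45 ± 3.26 SE, adjusted p = 0.597, edgeR). The prostaglandin synthase gene Ptgs2, whose product is needed for expansion, reached 30.3 CPM there, against at most 1.34 CPM elsewhere. The transcription factor gene Runx2, at 34.0 CPM against 57.7 to 85.3 CPM elsewhere, and the prostaglandin E2 receptor gene Ptger2, at 4.05 against 4.45 to 5.52 CPM, were lowest in that library. Il6 and Snap25, too low to be tested, were also lowest there, with 4 and 1 counts.

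The oocyte factor gene Gdf9, a direct inducer of Has2 in cumulus cells, held 160, 139 and 197 CPM in WT and 120, 118 and 125 CPM over KO replicates 1 to 3. These levels did not overlap, and the gene did not pass the test (log2 fold change -0.45 ± 0.12 SE, adjusted p = 0.283, edgeR). All 10 oocyte markers had negative fold changes, with a median of -0.37 on the log2 scale. Of the 10, 0 were called and 7 were at an unadjusted p under 0.05, against 9.16% of all genes. All 10 were highest in WT replicate 3, as were 14.9% of all genes. The 13 granulosa cell markers summed to 27953 CPM in KO replicate 3 and to between 17746 and 21210 CPM in the other libraries, and 10 of the 13 were highest there. The 15 immune cell markers summed to 200.1 CPM in KO replicate 3, the lowest of the 6 libraries, and the 7 stromal fibroblast markers to 664 CPM, also the lowest. The part of these differences, and of the Kdm6b level in KO replicate 3, in the levels of the matrix genes was not tested. In bulk RNA, fewer cells of a type and less RNA per cell cannot be told apart.

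Other genes had profiles over the libraries close to those of Has2 and Tnfaip6. Closeness was the root mean square difference in log2 CPM, each gene taken relative to its own WT mean, over the 6 libraries and among 11192 other genes whose mean reached 5 CPM. These 2 genes were the members that spanned more than 2 log2 units. For Has2 the 3 closest were F3, which encodes tissue factor (0.29), the prolyl hydroxylase gene Egln3 (0.30) and the transcription factor gene Egr2 (0.30). For Tnfaip6 they were the orphan nuclear receptor genes Nr4a2 (0.19) and Nr4a1 (0.28), with the prostaglandin E2 receptor gene Ptger4 (0.28) between them. F3 stood at 290 CPM in KO replicate 3 and at 30.7 to 52.7 CPM elsewhere, and Nr4a2 at 52.4 CPM against 4.09 to 4.88 CPM. These profiles share all 6 libraries, so the likeness rests mostly on 1 of them.

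The bases before the start sites of Tnfaip6, Ptx3 and Vcan are shown because these genes were high together in KO replicate 3. RefSeq promoter entries on GRCm38.p6 matched 5 of the 6 genes, all but Has2. Each line gives bases before the RefSeq start, 5′ to 3′ on the gene's strand, and stops short of any exon in the count files. Capitals mark matches to the motifs named after the lines.
Tnfaip6, chr2:52037863-52038008, plus strand: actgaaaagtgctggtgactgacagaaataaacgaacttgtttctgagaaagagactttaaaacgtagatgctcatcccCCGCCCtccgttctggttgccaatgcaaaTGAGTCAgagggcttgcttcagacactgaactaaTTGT
Ptx3, chr3:66219637-66219886, plus strand: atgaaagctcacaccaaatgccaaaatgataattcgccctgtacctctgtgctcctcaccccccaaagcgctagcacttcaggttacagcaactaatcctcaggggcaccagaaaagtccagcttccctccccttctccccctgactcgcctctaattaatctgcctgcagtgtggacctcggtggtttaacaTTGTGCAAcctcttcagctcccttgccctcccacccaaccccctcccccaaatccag
Vcan, chr13:89742513-89742762, minus strand: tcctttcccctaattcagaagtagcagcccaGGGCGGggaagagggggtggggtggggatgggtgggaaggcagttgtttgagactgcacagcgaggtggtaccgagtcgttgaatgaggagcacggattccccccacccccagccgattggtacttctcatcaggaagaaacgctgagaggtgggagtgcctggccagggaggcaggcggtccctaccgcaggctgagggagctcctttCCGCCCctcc
The 250 bases before each RefSeq start were searched on both strands. The C/EBP motif TTGNGNAA matched once in Tnfaip6, from 108 bases before the start (TTGTGTAA, which runs past the end of the stretch shown), and once in Ptx3, from 57 bases before it (TTGTGCAA). Of 32851 promoters, 11.7% held this motif. The AP-1 motif TGANTCA matched in Tnfaip6 alone of the 5, from 142 bases before the start (TGAGTCA), and 6.75% of promoters held it. The GC box GGGCGG matched in Tnfaip6 and at 2 places in Vcan, and 32.7% of promoters held it. The cAMP response element TGACGTCA and the core TGACG within it, the nuclear receptor site AAGGTCA, the E-box CACGTG and the TATA box TATAAA matched in none of the 5. These elements were held by 1.55%, 17.8%, 4.08%, 6.02% and 12.4% of promoters. The RUNX motif TGTGGT matched in Hapln1 alone, from 160 bases before its start, and 14% of promoters held it. None of the 4 elements with sites in these genes overlapped another. A match is a run of letters and no measure of binding. Cebpb, which encodes a C/EBP factor, stood at 73.9, 134 and 115 CPM over WT replicates 1 to 3. Over KO replicates 1 to 3 it stood at 113, 148 and 223 CPM. Its part in the levels of Tnfaip6 and Ptx3 was not tested.

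Cd44 and Hapln1 were higher in each KO library than in any WT library, 2 of the 6 genes against 7.68% of all genes with that order. Neither passed the test. Cd44 (chromosome 2, 102811141 to 102901665, minus strand) encodes the receptor that ties hyaluronan to granulosa and cumulus cells, and is also made by leukocytes and stromal cells. WT replicates 1 to 3 held 9.71, 14.9 and 13.2 CPM, and KO replicates 1 to 3 held 21.6, 15.7 and 18.9 CPM. The gap between the groups was narrow, from 14.9 CPM in WT replicate 2 to 15.7 CPM in KO replicate 2. The log2 fold change was 0.57 ± 0.17 SE (95% interval 0.17 to 0.97, adjusted p = 0.377 in edgeR). Leaving out KO replicate 3, it was 0.57 ± 0.21 SE (adjusted p = 0.269). Over all other alternatives, the fits without 1 library included, the adjusted p lay between 0.0933 (DESeq2) and 0.731 (without WT replicate 3).

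Markers of other cells differed in how they stood beside Cd44. The 15 immune cell markers summed to 241, 272 and 307 CPM over WT replicates 1 to 3, and to 374, 287 and 200.1 CPM over KO replicates 1 to 3. Each of the 15 was highest in KO replicate 1, and none was at 0 in any library. Their median log2 fold change was 0.08, with 0 of 15 past the test. In KO replicate 3, Cd44 was the second highest of the 6 libraries while the immune sum was the lowest. The 6 markers of theca and interstitial cells summed to 841, 1047 and 869 CPM over WT replicates 1 to 3, and to 1781, 1247 and 1456 CPM over KO replicates 1 to 3, the same order over the 6 libraries as Cd44. Most of that sum was Aldh1a1, at 1376 of the 1781 CPM in KO replicate 1. Of these 6, Aldh1a1, Cyp17a1 and Insl3 were higher in each KO library than in any WT library, against 7.68% of all genes. The other 3, Ptch1, Gli1 and Hhip, had negative log2 fold changes (-0.10, -0.28 and -0.05). Of the 6, 0 passed the test (smallest adjusted p = 0.125 for Aldh1a1, edgeR). None of the 6 was at 0 in any library. The part of immune, theca or interstitial cells in the Cd44 level was not tested.

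Hapln1 (chromosome 13, 89540636 to 89611832, plus strand) encodes link protein 1, which fastens proteoglycans to hyaluronan. Its gene ends 43480 bases from Vcan on the same chromosome. From 21 to 59 counts a library, WT replicates 1 to 3 held 0.45, 0.44 and 0.54 CPM, and KO replicates 1 to 3 held 1.26, 0.78 and 0.56 CPM. KO replicate 1 was 1.62 times the next library, and KO replicate 3 was level with WT replicate 3, at 27 counts each. The exact 95% interval of KO replicate 1 (0.96 to 1.62 CPM) lay above those of the 3 WT libraries (at most 0.78 CPM), while that of KO replicate 3 (0.37 to 0.82 CPM) overlapped them. The log2 fold change was 0.86 ± 0.33 SE (95% interval 0.13 to 1.60, adjusted p = 0.463, edgeR). It was 1.10 ± 0.31 SE without KO replicate 3 (adjusted p = 0.0757) and 0.48 without KO replicate 1 (adjusted p = 0.715).

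The order of Hapln1 over the KO libraries was unlike that of Vcan, its neighbour and partner in the matrix. Vcan was highest in KO replicate 3, where Hapln1 was 0.45 times its level in KO replicate 1. Red blood cell markers stood in the same order as Hapln1 over the KO libraries. Their sum was 2259, 1338 and 830 CPM in KO replicates 1 to 3 against 383 to 798 CPM in WT. The endothelial sum was 277, 198 and 139 CPM in KO replicates 1 to 3 against 152 to 186 CPM in WT. The immune and stromal fibroblast sums held that order too, at 374, 287 and 200 CPM and at 1287, 1072 and 664 CPM. So did the sums of smooth muscle and pericytes (333, 261 and 211 CPM) and of surface epithelium (518, 479 and 373 CPM). Those of granulosa cells, of the oocyte and of theca and interstitial cells did not. Of these lists, all 6 red blood cell markers and all 9 endothelial markers were highest in KO replicate 1, and none was at 0 throughout. Each of the 6 red blood cell markers was higher in every KO library than in any WT library, against 7.68% of all genes. That order could rest on a very small margin, as for Hba-a2, at 56.2 CPM in both KO replicate 3 and WT replicate 3. Among the 6 red blood cell markers 1 was called. It was the anion exchanger gene Slc4a1, at 0.16 to 0.34 CPM in WT and 0.83 to 1.11 CPM in KO. EdgeR gave it a fold change of 2.13 on the log2 scale and an adjusted p of 0.0406, from 8 to 52 counts a library. Of the 9 endothelial markers 0 were called. The part of the cells on these lists in the level of Hapln1 was not tested.

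**Figure D4:**
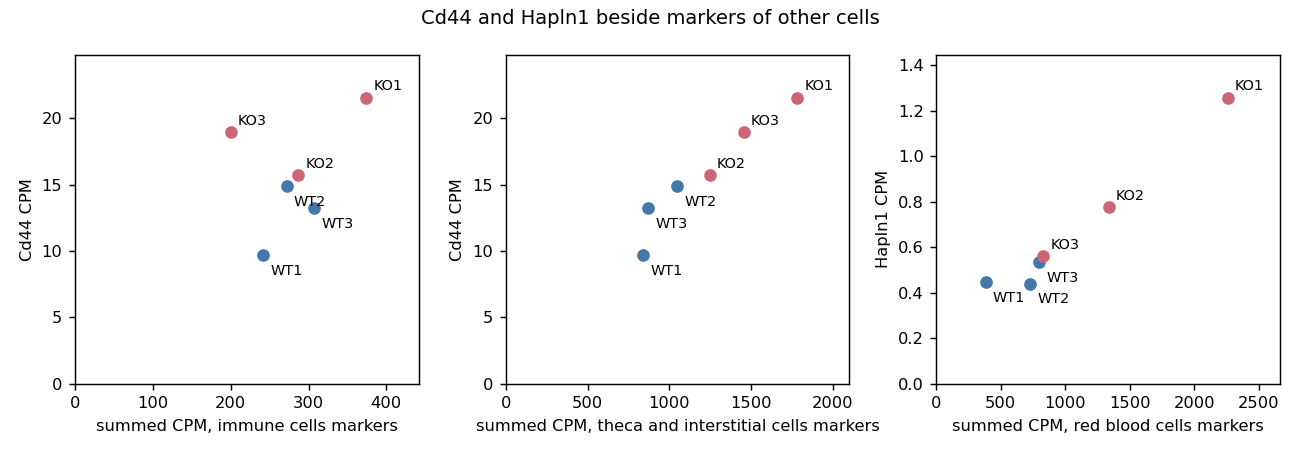
CPM of Cd44 and Hapln1 (vertical axes) against the summed CPM of marker lists of other cells (horizontal axes), 1 point per library, WT in blue and KO in red; the pairs shown were chosen after their values were seen. The theca and interstitial sum ranks the 6 libraries as Cd44 does, and KO replicate 3 combines a Cd44 level of 18.9 CPM with the lowest immune sum. Hapln1 and the red blood cell markers are both highest in KO replicate 1, as are the immune sum and the theca and interstitial sum.

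Per length, the 6 genes kept 1 order in WT. Vcan stood at 71.9 ± 6.88 TPM, Cd44 at 5.36 ± 0.98, Tnfaip6 at 2.24 ± 0.16, Ptx3 at 1.85 ± 0.22, Has2 at 0.38 ± 0.08 and Hapln1 at 0.27 ± 0.03 TPM (SD, n = 3). The ranges of Has2 and Hapln1 overlapped in WT, and those of the other neighbours in this order did not. KO replicates 1 and 2 had the same first 4 genes in the same order except that Ptx3 stood above Tnfaip6 in KO replicate 1 (2.07 and 1.92 TPM), and Hapln1 stood above Has2 in both. In KO replicate 3, Tnfaip6 stood at 34.2 TPM, above Cd44 at 7.89, Ptx3 at 5.05, Has2 at 4.19 and Hapln1 at 0.31 TPM. Tnfaip6 made up 21.0% of the summed TPM of the 6 there and 2.41% to 2.85% in the other libraries. Vcan made up 68.3% there and 83.2% to 89.8% elsewhere. Leaving out Vcan, the sum of the other 5 was 51.7 TPM in KO replicate 3 and 8.74 to 13.4 TPM elsewhere. Among all genes tested, Tnfaip6 ranked above 26.9% to 28.1% of genes in 5 libraries and above 74.6% in KO replicate 3, and Has2 above 4.75% to 9.65% and then 36.4%.

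The wider hyaluronan pathway had a median fold change near 0. Of 62 listed genes 55 were tested, and 0 passed in edgeR in either direction, with 7 at an unadjusted p under 0.05, against 9.16% of all genes. The median log2 fold change of the 49 that were not among the 6 was 0.011, with 26 positive and 23 negative. In KO replicate 3 the median of these 49 relative to the WT mean was -0.002 on the log2 scale, while that of the 6 genes was 1.07. DESeq2 called 2 of the list (1.16% of all genes), limma-voom 1 (0.466%), and the fit with no filter 2 (0.617% of all genes), all higher in KO: the brain proteoglycan gene Bcan in each, and the lymphatic hyaluronan receptor gene Lyve1 in DESeq2 and without the filter. Bcan had 21.2 to 24.7 CPM in WT and 34.7, 32.5 and 30.1 CPM over KO replicates 1 to 3, without overlap (0.47 ± 0.09 SE, adjusted p = 0.11 in edgeR).

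Genes that supply the sugars of the chain were level. All 7 of this group were tested and none passed, with fold changes on the log2 scale from -0.14 (Gnpnat1, of the hexosamine route, adjusted p = 0.622 in edgeR) to 0.09. Ugdh, which makes UDP-glucuronic acid, stood at 71.2 to 76.8 CPM in WT and 67.4 to 73.5 CPM in KO. Of 6 genes that break hyaluronan down, 0 passed. Cemip, which encodes a hyaluronan-binding protein needed for its depolymerization, gave 242, 400 and 352 CPM over WT replicates 1 to 3, and 270, 430 and 175 CPM over KO replicates 1 to 3. It was lowest in KO replicate 3, where the related gene Cemip2 was highest. Cemip2 stood at 31.7 to 33.7 CPM in WT and at 38.1, 37.3 and 43.5 CPM over KO replicates 1 to 3. It had the smallest p of this group, with no overlap between the groups (log2 fold change 0.27 ± 0.08 SE, adjusted p = 0.333, edgeR).

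The other receptor genes did not share 1 order over the libraries. Hmmr stood at 30.7 to 35.3 CPM in WT and lower, at 27.6, 29.0 and 30.4 CPM, over KO replicates 1 to 3 (adjusted p = 0.558, edgeR). Layn and Stab1 overlapped between the groups and were lowest in KO replicate 3, at 16.8 and 31.1 CPM. Lyve1 stood at 5.72 to 6.44 CPM in WT and reached 11.7, 9.25 and 7.56 CPM in KO replicates 1 to 3, with no overlap (0.65 ± 0.16 SE, adjusted p = 0.242, edgeR). The scavenger receptor gene Stab2 stood at 0.99 to 1.27 CPM in WT and reached 3.24, 2.05 and 0.997 CPM over KO replicates 1 to 3. Without KO replicate 3, edgeR called Lyve1 (adjusted p = 0.00467), Stab2 (0.0117) and Bcan (0.00441) higher in KO, 3 of the list where 2.26% of all genes were called. Of the 6 receptor genes, 5 were highest in KO replicate 1, Cd44 among them, as were all 9 endothelial markers, whose part was not tested.

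The partners of the 6 proteins did not pass either. Of the genes for heavy chains and their relatives, Itih5 stood at 259 to 410 CPM and Itih2 at 32.5 to 43.5 CPM over the libraries, and neither passed. Itih1 and Ambp, whose product joins the heavy chains in serum, had at most 0.13 CPM in any library. Among heavy-chain genes the smallest p was that of Itih3 (0.37 ± 0.24 SE, adjusted p = 0.674, edgeR). Among versican-cleaving proteases 0 of 5 tested passed, and Adamts5 had the smallest p, with 87.9 to 127 CPM in WT and 73.6 to 78.5 CPM in KO (-0.41 ± 0.14 SE, adjusted p = 0.437, edgeR). Adamts1, which the progesterone receptor controls at ovulation, varied widely, from 132 to 326 CPM in WT, with 138, 310 and 467 CPM over KO replicates 1 to 3. Of 14 genes for chondroitin sulphate chains 0 passed (smallest p for Chpf, 0.20 ± 0.08 SE, adjusted p = 0.478), as did 0 of 4 that anchor CD44 to actin (Rdx 0.05 ± 0.12 SE, adjusted p = 0.917).

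**Figure D5:**
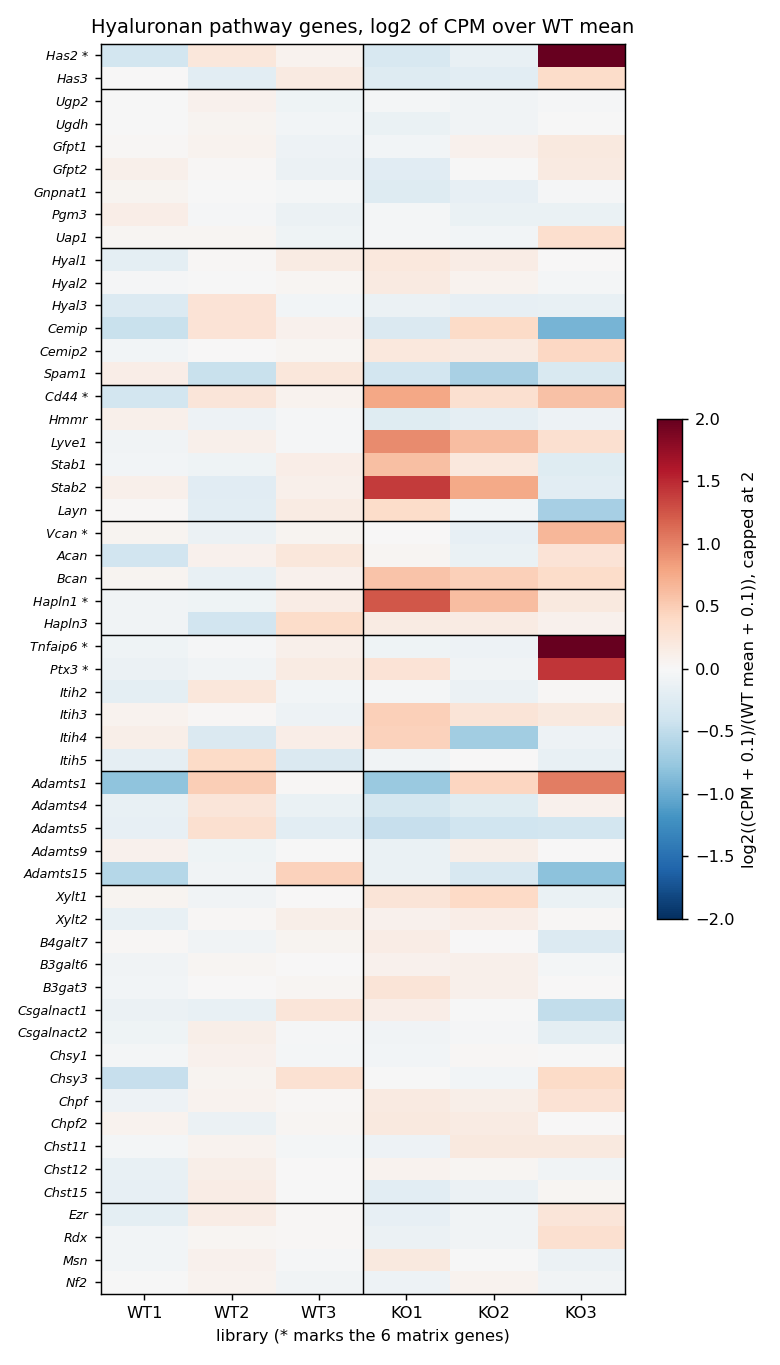
Heat map of the 55 tested hyaluronan pathway genes (rows, grouped by role, the 6 matrix genes starred) in the 6 libraries (columns); colour is log2 of CPM plus 0.1 over the WT mean plus 0.1, capped at 2 in either direction. Has2, Tnfaip6 and Ptx3 stand out in KO replicate 3, and Hapln1, Lyve1 and Stab2 in KO replicate 1.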

How the data were processed

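Granulosa cell RNA from 3 WT and 3 KO libraries was analysed; no sample was left out. The authors deposited raw counts of reads over each gene's exons. The submitters' processing notes list STAR 2.5.2b, Trimmomatic 0.36, Subread 1.5.2 with featureCounts, and the GRCm38 build. The sources used here state no annotation release, strand setting or treatment of multi-mapping reads.

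Symbols were matched by gene identifier (48970 of 49315). Counts were fitted with edgeR 4.0.16 in R 4.3.3 (filterByExpr, TMM, robust quasi-likelihood test, genotype the only term, Benjamini-Hochberg adjustment over 18250 genes, common biological coefficient of variation 0.136). TPM were computed from the counts and the exon lengths in the files. On simulated data for this comparison (18250 genes, 200 changed), the test recovered 34.3%, 74.6% and 95.5% of genes changed 1.5-fold, 2-fold and 4-fold, and 8.72% of its calls were unchanged genes.

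Named were the 6 genes, Kdm6b, overlapping genes and the smallest p of each pathway group. The 3 closest profiles of members spanning over 2 log2 units were also named. Genes named otherwise were chosen after their values were seen. These were Areg, Ptgs2, Gdf9, Cebpb, Fshr, Has1, Ugdh, Cemip, Stab2, Itih1, Itih2, Itih5, Ambp, Adamts1 and Gm16318. They also included Runx2, Ptger2, Il6, Snap25, Amhr2, Aldh1a1, Cyp17a1, Insl3, Slc4a1 and Gm4117. Ptch1, Gli1, Hhip, Hba-a2, Hmmr, Layn and Stab1 were likewise named after their values were seen. Members and lists were chosen with earlier results of these data known. Alternatives were RLE and upper quartile scaling, DESeq2 1.42.0, limma-voom (limma 3.58.1), no robust estimation, 2 filters, a replicate block and leaving out each library.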

Additional observations from a re-analysis of the deposited data

How the results depend on the processing

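No alternative called any of the 6 genes it tested. Signs changed in 5 values: without KO replicate 3, Has2 (-0.28), Tnfaip6 (-0.11), Vcan (-0.075) and Kdm6b (-0.038), and with limma-voom, Vcan (-0.046); the cause was not tested. Leaving out 1 library at a time gave log2 fold changes of -0.28 to 2.61 for Has2, 0.11 to 1.002 for Ptx3, -0.11 to 3.05 for Tnfaip6, -0.075 to 0.38 for Vcan, 0.42 to 0.70 for Cd44, 0.48 to 1.10 for Hapln1 and -0.038 to 0.40 for Kdm6b.

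All genes called higher and lower numbered 23 and 17, and 127 and 94 in DESeq2, 43 and 42 in limma-voom, 97 and 102 with no filter, 11 and 10 at a mean of 1 CPM. Without 1 library they ranged from 6 to 324 and from 2 to 97. Pathway calls rose from 0 to 2 (DESeq2), 1 (limma-voom), 2 (no filter) and 0 to 3 over the fits without 1 library. DESeq2 gave no p-value for Has2 and Tnfaip6, and the 1 CPM filter removed Hapln1, which rests on at most 59 counts a library.

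With the replicate block, 10 genes were higher and 5 lower, and the log2 fold changes were 1.31 for Has2 (adjusted p = 0.831), 1.38 for Tnfaip6, 0.60 for Ptx3, 0.17 for Vcan, 0.58 for Cd44, 0.82 for Hapln1 and 0.21 for Kdm6b, none called. Deviations of same-numbered libraries from their group means had correlations of -0.017, 0.074 and -0.033 across genes. Differently numbered libraries gave -0.067 to 0.059. With so few libraries a group, these values cannot settle whether same-numbered samples were paired.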

Other observations

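The predicted gene Gm16318 lies within the span of Vcan on the opposite strand and shares no exon bases with it. It held 0, 0 and 1 counts in WT replicates 1 to 3 and 2, 0 and 24 counts in KO replicates 1 to 3. Without known strand, reads of it and of Vcan introns cannot be told apart. Gm4117, also within Vcan on the opposite strand, held 53 to 82 counts in every library, and KO replicate 3 did not stand above WT replicate 2, at 82 counts each.

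The TPM of the protease gene Adamts1 per TPM of its substrate gene Vcan was 0.97, 2.69 and 1.71 in WT replicates 1 to 3 and 1.04, 2.65 and 2.24 in KO replicates 1 to 3, so KO replicate 3 lay within the WT range. The same ratio for Tnfaip6 was 0.31 in KO replicate 3 and 0.028 to 0.033 in the other libraries.

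Within WT, Has2, Cd44, Ptx3 and Hapln1 varied more than the median gene tested, with coefficients of variation of 24.2%, 21.0%, 11.5% and 11.1% against 8.31%. Counting error alone would give 19.0% for Has2, 10.8% for Ptx3, 20.6% for Hapln1 and 4.0% for Cd44, from the mean WT count. Has2 and Cd44 were both lowest in WT replicate 1. Tnfaip6 (7.06%) and Vcan (6.83%) varied less than the median gene, and counting error alone would give them 12.3% and 0.747%. Over the KO libraries the coefficients were 146% for Tnfaip6, 140% for Has2 and 60.4% for Ptx3, against 15.6% for Cd44 and a median of 10.6%.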
